A study of Mus musculus with 2 samples.

Results

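Splicing genes of the mouse oocyte were followed here in aged and young females: the SF3a and SF3b subunits of the U2 particle, the Sm and other core proteins of the small nuclear ribonucleoproteins (snRNPs), the Prp proteins and the SR proteins. They were chosen by their mouse gene symbols alone (stems Sf3a, Sf3b, Snrp, Srsf and Prpf followed by letters or digits), which took 44 of the 18364 genes that had counts in a table of 36227. Of the 44, 40 had a mean of 20 or more counts over both libraries, and the other 4 were Snrpc, Srsf9, Srsf12 and Prpf40b. By annotation 43 are protein-coding and 1, Snrpert, is a processed pseudogene of the Sm gene Snrpe. Genes whose symbols start with Snrnp are not taken by these stems and are treated with the other splicing genes, and Snrpe and Snrpn were not analysed here.

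The aged group was 1 library from 18 naturally ovulated oocytes of 6 ICR females aged 12 months, and the young group was 1 library from 18 such oocytes of 6 ICR females aged 3 months. All were MII oocytes, eggs that wait for fertilisation in the second meiotic metaphase. The oocytes of an age were lysed in a single tube, so the females cannot be told apart and the libraries have no replicate. No p-value for age was therefore computed. A gene is called higher or lower here when it was 2-fold or more apart, and intervals are 95% exact (Clopper-Pearson) intervals that cover counting error only.

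The aged library held 18597656 counts and the young library 19475110. Levels are given as CPM, the counts divided by the library total and multiplied by 1000000, and a count of 0 would allow up to 0.161 CPM in the aged and 0.154 CPM in the young library. All 16 oocyte marker genes with a row had at least 20 counts in each library. Of 22 markers of cumulus and granulosa cells 14 had counts, summing to 65.1 CPM in the aged and 29.9 CPM in the young library, while Amh, Foxl2 and Inhba had none. Cyp19a1 gave most of that sum, with 1056 counts in the aged and 436 in the young library, while 9 of the 14 were lower in the aged library, among them Cyp11a1 with 1 aged and 27 young counts and Inha with 0 and 14. Blood and vessel markers (7 with counts) summed to 47.3 CPM in the aged and 25.7 CPM in the young library, and fibroblast and epithelial markers (8 with counts) to 1.83 CPM in the aged and 5.65 CPM in the young library. The part of such cells in the results below was not tested. In pooled samples, fewer cells of a type and less RNA per cell cannot be told apart.

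The spliceosome removes introns from pre-mRNA. Its U1 and U2 snRNPs recognise the start of the intron and its branch point, the U5 and U4/U6 snRNPs then join, and the whole is rearranged into an active enzyme around the protein Prp8. SR proteins, named for their arginine- and serine-rich tails, bind exons and guide the snRNPs to splice sites. A fully grown oocyte has stopped transcription and carries mRNA made during its growth, some of it stored with a short poly(A) tail until it is used or degraded. The cDNA of both libraries was primed on poly(A), so the amount of an mRNA and the length of its tail cannot be told apart in these counts.

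Several small genes of the Sm class have near-identical copies elsewhere in the genome, which bears on how their counts can be read, so these copies come first. The row named Snrpert had 1954 counts in the aged and 15152 in the young library, the largest count of any of the 44 genes in the young library. Its annotated transcript is a near copy of the coding sequence of Snrpe. No row carries the gene ID that GENCODE release M21 gives to Snrpe. The sources used here do not give how reads that match several genes were counted, so the Snrpert row may hold reads of Snrpe.

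Snrpf, the Sm gene with the lowest ratio of aged to young, has a copy of the same kind (GENCODE release M21, GRCm38). The coding bases of Snrpf (chromosome 10) without the start codon match the processed pseudogene Gm13092 (chromosome 4) over 258 bases with 3 differences, which are in capitals, and a shared run of 222 bases.
Snrpf: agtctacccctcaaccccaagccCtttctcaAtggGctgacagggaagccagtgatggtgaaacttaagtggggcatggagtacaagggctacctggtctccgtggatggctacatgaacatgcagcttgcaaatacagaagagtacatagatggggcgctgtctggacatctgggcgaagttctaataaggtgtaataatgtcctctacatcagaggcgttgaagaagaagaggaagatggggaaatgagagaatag
Gm13092: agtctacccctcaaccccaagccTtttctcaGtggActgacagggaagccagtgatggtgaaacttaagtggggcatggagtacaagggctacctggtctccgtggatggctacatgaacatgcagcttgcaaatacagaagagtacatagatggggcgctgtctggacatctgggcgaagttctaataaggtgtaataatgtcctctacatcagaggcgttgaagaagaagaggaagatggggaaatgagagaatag
Gm13092 had 170 counts in the aged and 1370 in the young library, a log2 ratio of aged over young of −2.94 beside −3.65 for Snrpf. Snrpg (chromosome 6) shares all 231 coding bases with the processed pseudogene Gm8186 (chromosome 17), so its sequence is given once and without capitals.
Snrpg: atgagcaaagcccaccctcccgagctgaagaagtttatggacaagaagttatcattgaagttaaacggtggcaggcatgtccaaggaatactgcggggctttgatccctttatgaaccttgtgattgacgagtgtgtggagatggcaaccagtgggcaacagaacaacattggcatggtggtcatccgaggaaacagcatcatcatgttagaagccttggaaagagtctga
Gm8186 was counted more often than Snrpg itself, with 6761 counts in the aged and 5881 in the young library against 1531 and 1048 for Snrpg.

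Taken as a whole, the genes differed in both directions between the ages. By the 2-fold rule 14 of the 40 genes above the floor of 20 counts were higher in aged oocytes and 5 lower. The shares, 35% and 12.5%, stand beside 27.9% and 10.6% for all 10211 genes above that floor. For 10 of the higher genes and all 5 of the lower ones the whole counting interval was past 2-fold, where all genes gave 18.0% and 6.35%. The median log2 ratio was 0.86, beside 0.43 for all genes, and 32 of 40 had a ratio above 0, beside 66.4% of all genes.

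The 16 oocyte markers with a row summed to 103452 CPM in the aged and 182286 CPM in the young library, of which Gdf9 alone gave 42795 CPM in the aged and 97099 CPM in the young library. Of these markers 6 were higher and 10 lower in the aged library, and the median gene was higher in the aged library after scaling to totals. Relative to the median gene, 9 of the 40 were called higher and 7 lower, where all genes gave 16.0% and 17.3%. Whichever scaling, added count or composition correction was used, 5 genes were called higher, namely Prpf31, Prpf39, Snrpd1, Snrpd3 and Srsf3. Another 5 were called lower in each of these, namely Prpf8, Snrpb, Snrpd2, Snrpf and the pseudogene Snrpert. Each alternative scaling to a single factor lowers all ratios, so no lower call could be lost by it. With a floor of 100 counts Snrpb and Snrpd2 drop out, which leaves 3 genes called lower. The authors' deposited table marked 34 of the 44 genes at p below 0.001, with 26 up and 8 down in aged oocytes, beside 50.0% of its 15387 genes with a p-value. Of the 34 genes so marked in the authors' deposited table, 16 were within 2-fold, and those p-values set 1 library's reads against the other's, with no replicate of either age.

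**Figure D1:**
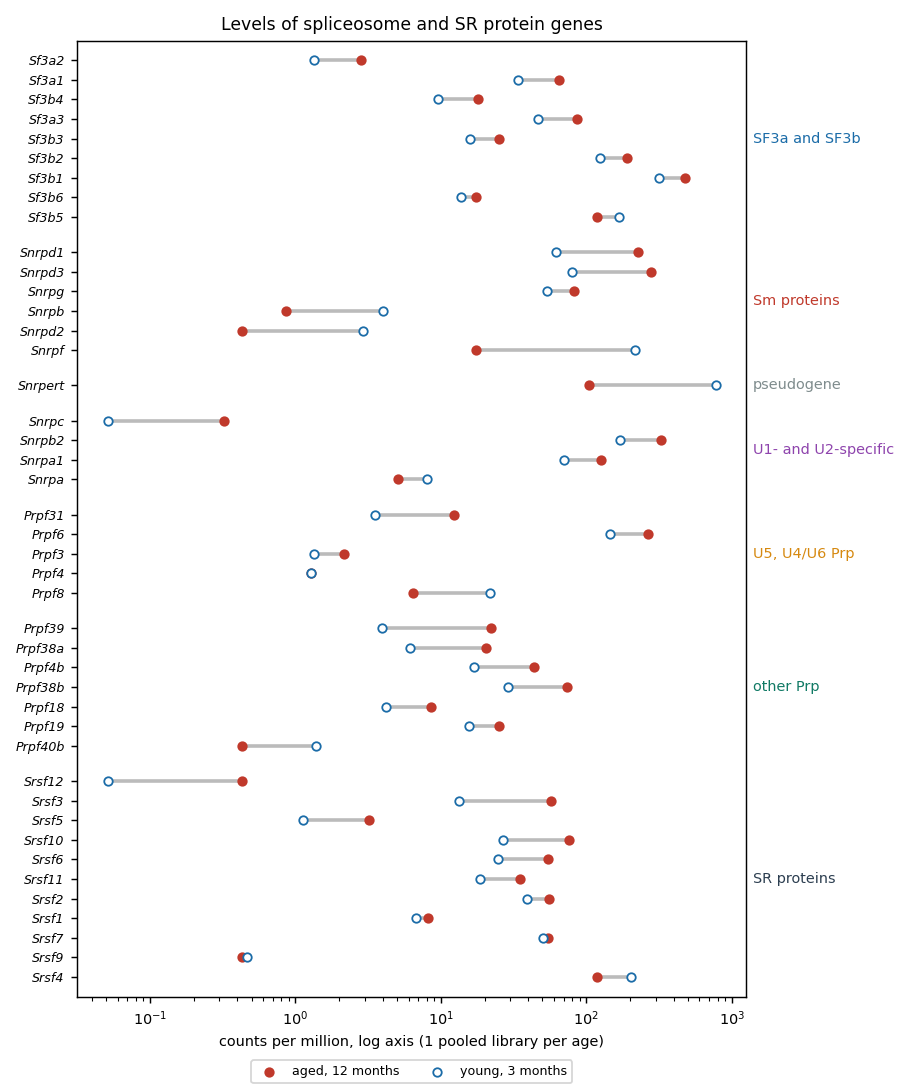
Level of 43 of the 44 genes in the aged library (red, filled) and the young library (blue, open) in CPM on a log axis, 1 pooled library per age, grouped by role and ordered by ratio. Snrpf stands at 17.4 CPM in the aged and 218 CPM in the young library, while Snrpd3 stands at 278 CPM in the aged and 79.2 CPM in the young library.

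Together the 44 genes made up 0.321% of the aged and 0.284% of the young library. Without Snrpert, which alone held 0.0105% of the aged and 0.0778% of the young library, the 43 coding genes took 0.310% in the aged and 0.207% in the young library. The single pseudogene row thus set much of the sum in the young library.

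The SF3a and SF3b proteins form the part of the U2 snRNP that holds the branch point, and their genes lay mostly within 2-fold of equality. Of 9 genes 1, Sf3a2, was 2-fold or more higher and none was 2-fold lower, beside 27.9% and 10.6% of all genes. A ratio above 0 was found in 8 of the 9, and the class median on the log2 scale was 0.66. Centred on the median gene it was 0.23 and no member was 2-fold apart. Sf3b1, which encodes the largest scaffold subunit and contacts the branch point region, was the most abundant of all 44 genes in the aged library, with 8819 counts (474 CPM) against 6141 (315 CPM) in the young library. It was 1.50-fold higher in the aged library (interval 1.46 to 1.55).

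Its partners lay close to it. Sf3b2, whose product binds upstream of the branch point, had 3524 counts in the aged and 2421 in the young library and was 1.52-fold higher. Sf3b3, a scaffold of propeller domains, was 1.58-fold higher from 469 and 311 counts in the aged and young libraries. These 3 subunit genes thus had nearly equal ratios at levels that differed widely. Sf3a1 (1209 aged and 661 young counts), Sf3a3 (1613 and 913) and Sf3b4 (336 and 185) were each between 1.85-fold and 1.92-fold higher.

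Sf3b5 and Sf3b6, which encode small SF3b subunits, had the lowest ratios of the class. Sf3b5 had 2214 counts in the aged and 3277 in the young library and was 1.41-fold lower (interval 1.34 to 1.49), the only SF3 gene with a ratio below 0 after scaling to totals. Sf3b6, whose product contacts the branch point adenosine, was 1.25-fold higher from 323 aged and 270 young counts, and its log2 ratio of 0.33 became −0.10 relative to the median gene. Sf3a2 was 2.13-fold higher, but from 53 aged and 26 young counts, and its interval reached down to 1.31-fold. An exon of Sf3a2 overlaps the oppositely oriented gene Plekhj1, which had 1524 aged and 1047 young counts.

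The Sm proteins form the ring that every major snRNP except U6 carries, and each ring holds one of each kind. Their genes split further than those of any other class here. Of the 6 Sm genes 2 were 2-fold or more higher, 3 were 2-fold or more lower and 1 was within 2-fold. Among all genes 27.9% were higher and 10.6% lower. The calls of the Sm genes were the same relative to the median gene, where all genes gave 16.0% and 17.3%. The class median of −0.80 became 1.21 with a floor of 100 counts, since that takes away Snrpb and Snrpd2. These genes, both among the 3 lower ones, pass the floor of 20 counts only through the young library.

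Snrpd1 had 4210 counts (226 CPM) in the aged library against 1203 (61.8 CPM) in the young library, 3.66-fold higher (interval 3.44 to 3.91). Snrpd3 had 5165 counts (278 CPM) in the aged library against 1543 (79.2 CPM) in the young library, 3.51-fold higher (interval 3.31 to 3.71). With genes ordered by ratio from the highest, Snrpd1 ranked 849th and Snrpd3 943rd of 10211. The pseudogene Gm14277, 97.8% identical to the Snrpd1 coding sequence over 360 bases, had 2059 aged and 683 young counts, a log2 ratio of 1.66 beside 1.87 for Snrpd1. Snrpg was 1.53-fold higher, with 1531 counts in the aged and 1048 in the young library.

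Snrpf went the other way, with 323 counts (17.4 CPM) in the aged library against 4241 (218 CPM) in the young library. It was 12.5-fold lower (interval 11.2 to 14.1), and ranked 96th of 10211 from the lowest ratio. Its exons overlap the oppositely oriented gene Ccdc38, which had 383 aged and 1420 young counts. Snrpd2 had 8 counts in the aged and 57 in the young library, 6.80-fold lower, with a wide interval of 3.23 to 16.5. Snrpb, which encodes the Sm protein B, had 16 and 78 counts in the aged and young libraries and was 4.66-fold lower (interval 2.69 to 8.54). Snrpb and Snrpd2 were thus scarce at both ages, while Snrpf was abundant in the young library.

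Per kilobase of transcript, and by the counts of each gene's own row, the order of the Sm genes differed between the libraries. Reads counted in near copies are left out of these levels. Gm8186, the copy of Snrpg, had 6761 aged and 5881 young counts against 1531 and 1048 for Snrpg. The order, and which gene stands highest, therefore depend on how shared reads were counted. In the aged library Snrpd1 stood highest at 264 CPM per kilobase, followed by Snrpd3 at 91.5, Snrpg at 78.0 and Snrpf at 20.2. In the young library Snrpf stood highest at 253 CPM per kilobase, followed by Snrpd1 at 72.0, Snrpg at 51.0 and Snrpd3 at 26.1. The level of Snrpd3 divided by that of Snrpf was 4.53 in the aged and 0.103 in the young library. Snrpb (0.741 aged, 3.45 young) and Snrpd2 (0.303 aged, 2.06 young) were lowest in both, on the same scale. Lengths are those of the longest annotated coding transcript. An oocyte transcript of another length would move a gene's level alike in both libraries only if that length were the same at both ages. The order of the genes within a library therefore depends on these lengths as well.

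The row of Snrpert resembled Snrpf, at 105 CPM in the aged and 778 CPM in the young library. It was 7.40-fold lower (interval 7.06 to 7.77), and it ranked 180th among all genes by count in the young library and 1471st in the aged one.

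**Figure D2:**
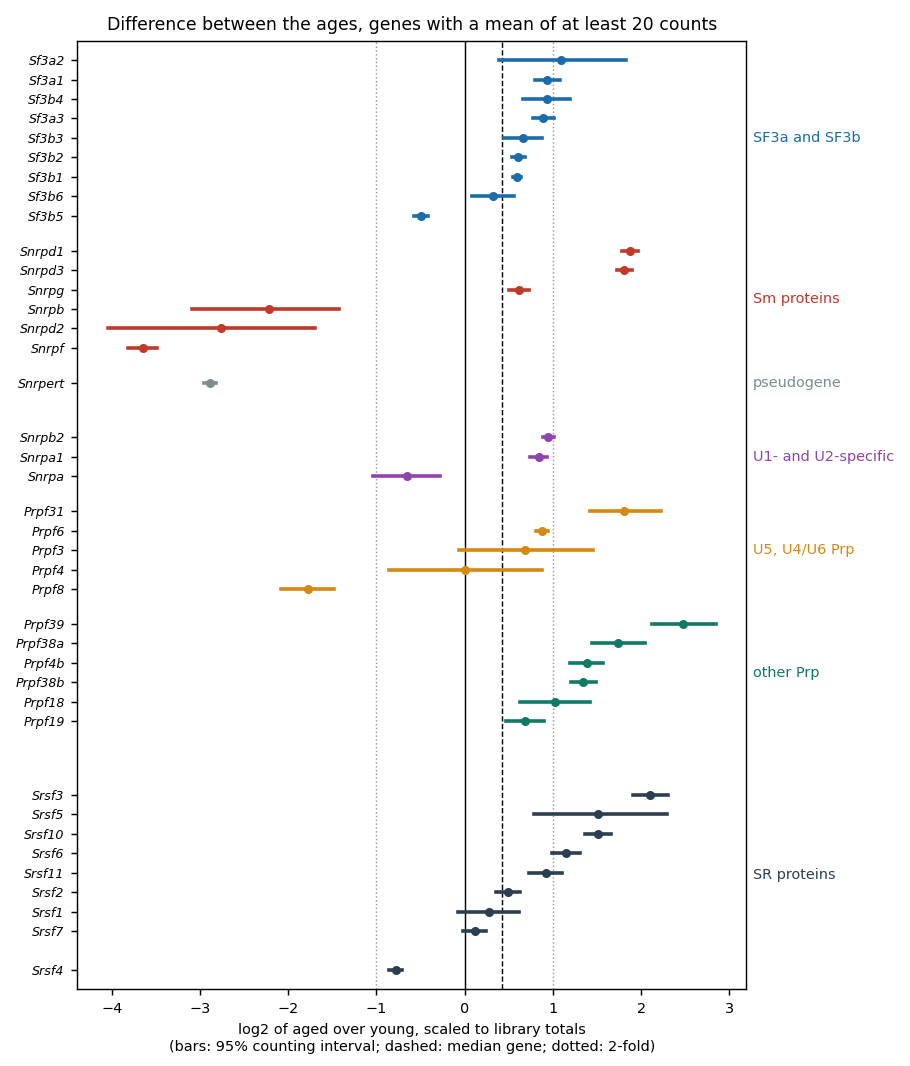
Log2 ratio of aged over young for 39 of the 40 genes above the floor of 20 counts, scaled to library totals, with 95% counting intervals as bars. The solid line is equality, the dashed line the median gene at 0.43 and the dotted lines 2-fold, and Sm genes are found from −3.65 (Snrpf) to 1.87 (Snrpd1), while SF3 genes range from −0.50 to 1.09.

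Among the U1- and U2-specific proteins, the U2 pair had similar ratios. Snrpb2, which encodes the U2 protein B″, had 6097 counts in the aged and 3315 in the young library, 1.93-fold higher. Snrpa1, which encodes its binding partner U2 A′, had 2352 counts in the aged and 1375 in the young library, 1.79-fold higher. The U1 protein gene Snrpa had 95 aged and 157 young counts and was 1.58-fold lower (interval 1.22 to 2.06). Snrpc, whose product helps U1 to bind the intron's start, had 6 counts in the aged and 1 in the young library, too few for a statement. None of the 3 genes above the floor was 2-fold apart after scaling to totals, but Snrpa was 2-fold lower relative to the median gene.

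Prp proteins of the U5 and U4/U6 particles differed in direction from gene to gene. Prpf8, the core of the catalytic centre, had 119 counts (6.40 CPM) in the aged library against 426 (21.9 CPM) in the young library, 3.42-fold lower (interval 2.78 to 4.23). Prpf31, which binds U4 and tethers it to U5, had 231 aged and 69 young counts and was 3.51-fold higher (interval 2.67 to 4.66). Prpf6, which bridges U5 and U4/U6, was the most abundant of the 5 with 4956 counts in the aged and 2820 in the young library, 1.84-fold higher. Prpf3 (40 aged and 26 young counts) and Prpf4 (24 and 25), which together bind U4/U6, had intervals that held equality. The class median of 0.69 was 0.03 once transcript length and GC content were taken into account.

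The remaining Prp genes were higher in the aged library more uniformly. Of 7 above the floor 6 were 2-fold or more higher and none lower, beside 27.9% and 10.6% of all genes. Their log2 ratios had a median of 1.38. Centred on the median gene, 3 of the 7 were called higher, beside 16.0% of all genes. Once transcript length and GC content were taken into account 1 of the 7 was, beside 13.6% of all genes. Prpf39, known from yeast as a U1-associated protein, had 409 counts (22.0 CPM) in the aged library against 77 (3.95 CPM) in the young library. At 5.56-fold (interval 4.35 to 7.19) it had the highest ratio of the 40 genes and ranked 335th of 10211. Prpf38a, which joins at the stage of activation, had 382 aged and 120 young counts and was 3.33-fold higher.

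The kinase gene Prpf4b was 2.61-fold higher from 817 aged and 328 young counts. Prpf38b, a relative of Prpf38a, was 2.54-fold higher from 1363 aged and 562 young counts. The second-step factor Prpf18 stood at the threshold, 2.03-fold higher from 159 and 82 counts in the aged and young libraries, and Prpf19, the ubiquitin ligase at the core of the Prp19 complex, was 1.61-fold higher (466 and 304). Prpf40b, under the floor, had 8 counts in the aged and 27 in the young library.

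SR protein genes ranged from higher to slightly lower in the aged library. Of 9 above the floor 4 were 2-fold or more higher and none lower, beside 27.9% and 10.6% of all genes. The median log2 ratio was 0.92. Relative to the median gene it was 0.49, with 3 genes higher and Srsf4 lower, where all genes gave 16.0% and 17.3%. Srsf3, the smallest SR protein, required in mouse oocytes for normal splicing, had 1068 counts (57.4 CPM) in the aged library against 260 (13.4 CPM) in the young library, 4.30-fold higher (interval 3.75 to 4.95). Srsf10, a splicing repressor when dephosphorylated, had 1413 aged and 521 young counts and was 2.84-fold higher. Srsf6 had 1020 counts in the aged and 483 in the young library, 2.21-fold higher. Srsf5 was 2.86-fold higher from 60 aged and 22 young counts, with a lower bound of 1.73-fold.

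The remaining SR genes were within 2-fold or under the floor. Srsf1 had 151 aged and 131 young counts and was 1.21-fold higher, with an interval that held equality (0.949 to 1.54). Srsf2, whose product marks nuclear speckles, was 1.41-fold higher with 1027 counts in the aged and 764 in the young library. Srsf7, a close relative of Srsf3, had 1011 counts in the aged and 978 in the young library, 1.08-fold higher with an interval that held equality. In this pair of libraries the ratio of Srsf7 was below that of Srsf3, and their intervals, which cover counting error only, did not overlap. Srsf11 was 1.89-fold higher, from 653 and 362 counts in the aged and young libraries. Under the floor, Srsf9 had 8 aged and 9 young counts and Srsf12 had 8 aged and 1 young count.

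Srsf4, the most abundant SR gene of both libraries, had 2204 counts (119 CPM) in the aged and 3968 (204 CPM) in the young library and was 1.72-fold lower (interval 1.63 to 1.81). Its exons overlap Gm12992, a non-coding gene on the opposite strand, and that row had 2210 counts in the aged and 3971 in the young library. The rows thus differ by a few counts in each library, and without strand the reads of Srsf4 and Gm12992 cannot be told apart. The use of strand in counting is not stated in the sources used here.

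**Figure D3:**
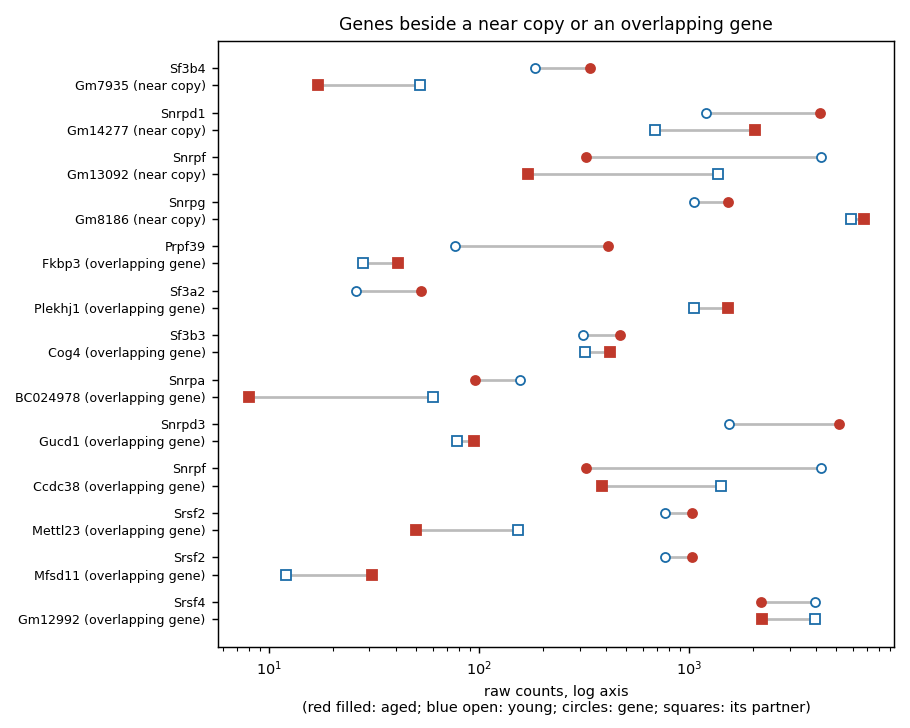
Raw counts on a log axis in the aged (red, filled) and young (blue, open) library for genes (circles) that have a near copy or an overlapping gene above the floor of 20 counts (squares). Srsf4 and Gm12992 coincide, at 2204 and 2210 counts in the aged library and 3968 and 3971 in the young library, and Gm13092 is lower in the aged library as Snrpf is.

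Near copies, with at least 95% identity over at least 200 bases, were found for 12 of the 44 genes, and 14 genes overlap an exon of another gene, 13 of them on the opposite strand. Adding the counts of the copies to each gene left 14 genes 2-fold or more higher and 5 lower, with a median of 0.76. Of the 18 genes above the floor with neither a copy nor an overlap, 5 were 2-fold or more higher and 2, Snrpb and Prpf8, lower, with a median of 0.88. These are 27.8% and 11.1%, beside 27.9% and 10.6% of all genes. The lower values of Snrpf, Snrpd2 and Snrpert and the higher values of Snrpd1, Snrpd3, Srsf3, Prpf31 and Prpf39 belong to genes with a copy or an overlap. For Snrpd3 the overlapping gene Gucd1 had 94 aged and 78 young counts, and for Prpf39 the overlapping gene Fkbp3 had 41 aged and 28 young counts. Both had far fewer than the splicing gene in the aged library. Gm12355, a copy of Srsf3, had 5 aged and 1 young count, and Gm15927, which overlaps Prpf31, had 2 and 5. Gm5449, a copy of Snrpd2, had 0 and 1. The copies of Snrpf and Snrpd1 held more, as given above. The part of shared reads in these ratios was not tested.

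Alternative isoforms cannot be separated in counts per gene. The annotation gives transcripts marked for nonsense-mediated decay or with a retained intron for 35 of the 44 genes and for 9 of the 11 SR genes. SR genes are known to limit their own expression through such isoforms, and the counts pool these with the coding ones.

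Base composition moved with the ratio among these genes as among all genes. Across the 40 genes, which share the same pair of libraries and are not replicates, Spearman's rho between GC content and the log2 ratio was −0.32 and Pearson's r was −0.23. Across all 9902 genes with an annotated transcript rho was −0.40 and r was −0.36. At or above the genes' own median GC content of 46.3%, a split chosen after the values were seen, 4 of 20 genes were 2-fold or more higher, and below it 10 of 20. Among all genes 20.6% were 2-fold or more higher at or above that content and 44.1% below it. With the log of transcript length r was 0.40 and rho 0.19 across the 40 genes.

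The last 75 coding bases of the gene with the highest ratio and of a GC-rich gene with a low ratio illustrate the range, with G and C in capitals. Both belong to GENCODE transcripts, Prpf39 on chromosome 12 and Snrpb on chromosome 2.
Prpf39: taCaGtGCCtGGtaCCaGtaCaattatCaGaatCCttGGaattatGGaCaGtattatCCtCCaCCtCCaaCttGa
Snrpb: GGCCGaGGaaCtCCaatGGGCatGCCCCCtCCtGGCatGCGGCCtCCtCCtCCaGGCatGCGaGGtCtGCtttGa
G and C make up 41.3% of the Prpf39 stretch and 65.3% of the Snrpb stretch, and 37.0% and 57.7% of the whole transcripts. The relation has clear exceptions, since the Snrpf transcript has 41.3% GC and the lowest ratio, and the Sf3a2 transcript has 62.2% GC and a ratio above that of the median gene.

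**Figure D4:**
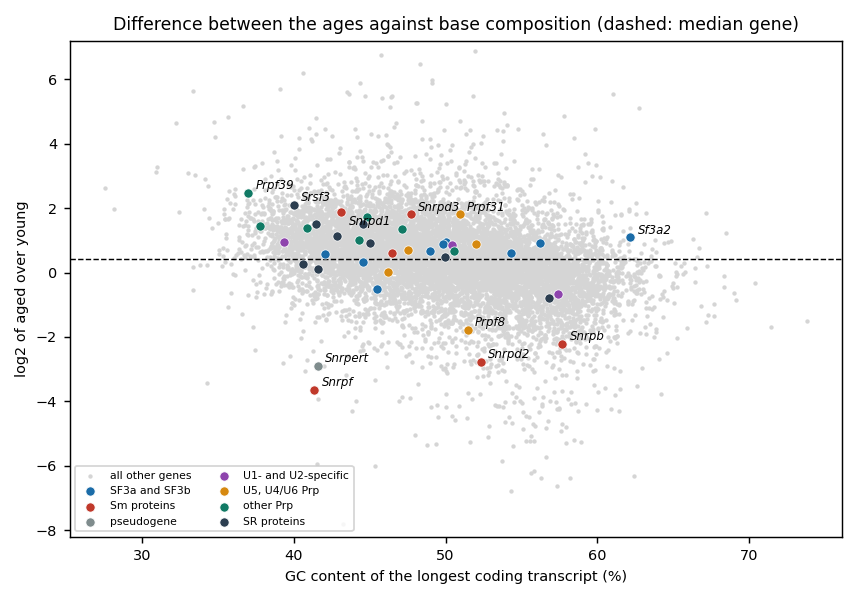
Log2 ratio of aged over young against the GC content of each gene's transcript, with the 40 splicing genes coloured by role over all other genes in grey. The dashed line is the median gene at 0.43, and Prpf39 (37.0% GC) and Snrpb (57.7% GC) mark the downward slope while Snrpf and Snrpert lie far below genes of similar GC content.

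When each ratio was reduced by the median of genes of like transcript length and GC content, 7 of the 40 genes were 2-fold or more higher and 6 lower, where all genes gave 13.6% and 14.9%. The class of other Prp genes changed most under this correction, from 6 higher genes to 1, Prpf39. For the SR genes 1, Srsf3, was higher and none lower. In the Sm class the same 2 genes were higher and the same 3 lower, and Snrpf reached −5.08. In the SF3 class Sf3a2, at 1.20, was called higher as before, Sf3b4 at 1.02 came to be called higher and Sf3b5 at −1.22 lower.

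Other splicing genes, which the symbol stems do not take, were grouped into 11 lists by function. Of 193 such genes above the floor 67 were 2-fold or more higher and 12 lower, which is 34.7% and 6.22% beside 27.9% and 10.6% of all genes. Their median log2 ratio was 0.71, or 0.29 once centred on the median gene, when 36 of the 193 were higher and 20 lower beside 16.0% and 17.3% of all genes. The counts of the single lists below are on the scale of library totals, where 27.9% of all genes were higher and 10.6% lower. The lists of hnRNP proteins, SR-related proteins and other splicing regulators had the highest medians, at 0.99, 0.94 and 0.97. They also had the lowest median GC contents of the 11 lists, at 45.2%, 44.2% and 45.0%. Less the length and GC bin median, their medians were 0.50, 0.29 and 0.05. The highest of the other lists on that scale was branch point and 3′ splice site recognition, at 0.33.

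Of 25 hnRNP genes, whose products coat nuclear RNA, 12 were 2-fold or more higher and none lower. Centred on the median gene 8 of the 25 were higher, and 5 less the length and GC median, where all genes gave 16.0% and 13.6%. Taf15 was 15.6-fold higher with 582 counts in the aged and 39 in the young library, and Pcbp1 lowest in the list with 19614 and 20863 counts. Of 20 SR-related genes 8 were higher and none lower (2 higher when centred), from Rsrc2, 4.73-fold higher with 167 aged and 37 young counts, to Luc7l3, 1.30-fold lower. Among 19 other regulators 8 were higher and 1 lower (2 and 1 when centred), with Rbm6 4.79-fold higher and Khsrp, which binds AU-rich and intronic elements, 3.01-fold lower from 2153 aged and 6792 young counts.

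The enzymes that act on SR proteins had 4 of 10 genes 2-fold or more higher and none lower (2 and none when centred). The SR kinase gene Clk4 was 5.24-fold higher, from 40 aged and 8 young counts, and the phosphatase regulator gene Ppp1r8 was 1.48-fold lower. In the Prp19 complex and the catalytic steps 16 of 39 were higher and 3 lower, but 8 and 7 when centred. Snw1 was 4.54-fold higher (629 aged and 145 young counts) and Tfip11, which acts in spliceosome disassembly, 3.49-fold lower (61 and 223). The exon junction list held 6 of 19 higher and 4 lower (6 and 5 when centred). Magoh, a core subunit of that complex, was 4.38-fold lower with 14432 counts in the aged and 66232 in the young library, and Smg1, a kinase of nonsense-mediated decay, was 7.63-fold higher (430 and 59).

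Other snRNP proteins had 6 of 24 genes higher and 1 lower, with a median of 0.30. Ppih, a proline isomerase of U4/U6, was 4.80-fold higher (316 aged and 69 young counts), and Eftud2, the U5 GTPase that binds Prp8, was 2.07-fold lower (48 and 104). The list for the LSm ring of U6 held 7 genes, of which Lsm3 was 8.54-fold higher (1403 and 172) and Naa38 3.30-fold lower (229 and 791). Naa38 encodes an acetyltransferase subunit, not an LSm ring protein, and was listed for an older alias. Without it, a choice made after the values were seen, 2 of 6 LSm genes were higher and none lower, with a median of 0.51 and the lowest log2 ratio at −0.20.

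None of 6 genes of branch point and 3′ splice site recognition was 2-fold apart, from Uhmk1 at 0.94 to U2af1l4 at −0.01 on the log2 scale. Of 10 minor spliceosome genes 2 were higher and 2 lower, with Zrsr2 3.16-fold higher and Txnl4b 2.99-fold lower. Of 16 genes of snRNP assembly and transport 4 were higher and none lower, with the export receptor gene Xpo1 3.60-fold higher (684 and 199 counts) and Coil, which encodes the Cajal body protein coilin, 1.41-fold lower (27 and 40). Relative to the median gene the medians of 6 lists, positive with library totals, were below 0: other snRNP (−0.12), LSm (−0.15, or 0.09 without Naa38), branch point (−0.13), exon junction (−0.32), minor spliceosome (−0.22) and assembly (−0.08).

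**Figure D5:**
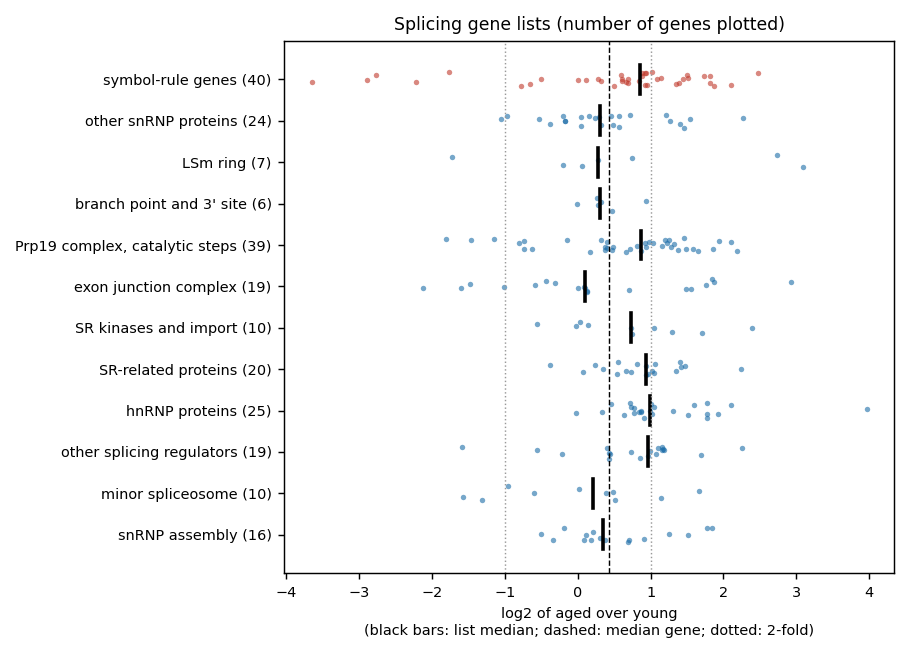
Log2 ratio of aged over young for the 40 genes chosen by symbol (red) and for 11 lists of other splicing genes (blue), each point a gene above the floor of 20 counts and each black bar a list median. The dashed line is the median gene at 0.43 and the dotted lines are 2-fold, and hnRNP genes lie from −0.02 to 3.97.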

How the data were processed

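RNA of 1 aged and 1 young pool of MII oocytes was measured. Per the labels' protocols, cDNA was primed with oligo(dT) of 24 bases, amplified by 18 and 14 cycles and sequenced on a SOLiD instrument. The deposited counts per gene are whole numbers and unnormalized, and per the submitters' processing notes the build was mm9. The aligner, the annotation and the counting rules, strand included, are not stated in the sources used here. The authors' deposited table also gives log2 fold changes of young over aged, a z score, p-values and q-values per gene, and of these the p-values and the scaled fold changes were used.

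Symbols, transcripts and overlaps came from GENCODE mouse release M21, another build, so no coordinates are given. A symbol was found for 93.7% of the gene IDs with counts. Counts were scaled to library totals, and a floor of 20 counts on the mean was set. Where a library had 0, 3 counts were set. TMM factors (edgeR 4.0.16), size factors (DESeq2 1.42.0), centring on the median gene, totals without 100 genes, other floors, 5 added counts and a correction in 10 by 10 bins of length and GC content were alternatives. Copies were sought with blastn 2.17.0. Ratios and intervals were tested on simulated data that held counting error only. That test covers the calculation, not variation between pools or from amplification.

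The genes and lists were chosen with earlier results of these data known. Named were the genes of the symbol rule, except 1 that is counted in the totals but not reported here by name, and the highest and lowest gene of each list. The split by GC content, the copies and the overlaps were added after the data were seen.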

Additional observations from a re-analysis of the deposited data

How the results depend on the processing

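No paired analysis was possible because each age has 1 library, and for the same reason no library could be left out. The median log2 ratio of the 40 genes, 0.86 with library totals, was 0.49 with TMM factors, 0.50 with DESeq2 size factors, 0.43 centred on the median gene, 0.57 without the 100 most abundant genes and 0.21 less the median of the length and GC bin, and every one of these settings also lowers the median of all genes. The number at least 2-fold higher, 14, was 9 when centred and 7 with the bin correction, and the number lower, 5, was 3 with a floor of 100 counts, which leaves 34 genes. Among genes without copies or overlaps, a choice made after the data were seen, there were 5 higher and 2 lower, of 18. With the other settings 10 to 16 were higher and 4 to 7 lower. Of all genes at least 2-fold apart, 72.5% were higher with library totals and 51.3% (TMM), 52.5% (DESeq2), 48.0% (centred), 57.2% (without the 100 genes) and 47.7% (bins) otherwise. The 14 higher and 5 lower splicing genes chosen by symbol kept their sign with the bin correction. The other scalings shift all ratios alike by less than 2-fold, so no called gene could change sign under them. The floor of 100 counts drops genes and leaves the ratios as they were. Depth limits Snrpc, Srsf9, Srsf12 and Prpf40b, with at most 27 counts in a library.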

Other observations

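The RNA partners of these proteins are small nuclear RNAs, most of which carry no poly(A) tail. Of 1072 rows annotated as such genes 32 had counts, summing to 1103 in the aged and 876 in the young library. A single row, Gm23865 on chromosome 2, held 1005 of the aged and 839 of the young counts, and the next, Gm25541, held 32 and 17.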
